A study of Rattus norvegicus with 18 samples.

Results

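Nuclear factor I (NFI) and inhibitor of DNA binding (ID) proteins are transcriptional regulators with known roles in the onset of gliogenesis, and their mRNA was followed here in primary rat cortical neurons depleted of CHD5. The 8 genes were Nfia, Nfib, Nfic and Nfix of the NFI family and Id1, Id2, Id3 and Id4 of the ID family. They were found by matching the gene symbols annotated to the array probes, and where a gene had several probes the one with the highest mean signal was to be used. Of the 8 genes, 7 had a probe, each of them a single one, among the 22523 probes (21563 gene symbols) of the array. Id4 had no probe and was not analysed here. A signal above background on at least 1 array (detection p-value of at most 0.02) was found for 6 of the 7, and for 11079 of all probes.

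The neurons came from E18 rats and were plated in Neural Basal Medium. One day after plating (day 1) they received, for 6 hours, a pLKO.1 lentivirus that expresses an shRNA against CHD5 or the same vector with a scrambled control shRNA. All cultures therefore carried a lentivirus, and the CHD5 shRNA cultures of the arrays carried 1 construct. Each lentivirus had 3 replicates, lettered a to c, on each of the harvest days 5, 9 and 12, which gave 18 arrays in 6 groups of 3. The rat strain was not given in the sources used here, nor whether the replicates were separate cultures, so that p-values measure the spread between these samples and this may be technical. No probe is annotated to Chd5, so its depletion could not be read from the arrays.

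NFI proteins bind DNA as dimers at sites built from the half-site TTGGC. Nfia and Nfib are known for promoting the switch of neural progenitors from making neurons to making astrocytes and for activating astrocyte genes, and Nfix acts in neural stem cells and in the timing of glial maturation. ID proteins have a helix-loop-helix domain but no basic region. They capture the E proteins (Tcf3, Tcf4 and Tcf12) that proneural factors need as partners to bind E-boxes, CANNTG, and thereby hold back neuronal differentiation. Id1, Id2 and Id3 are targets of bone morphogenetic protein (BMP) signalling through SMAD proteins in many cells, and that pathway favours astrocytes over neurons in the developing cortex.

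Sequences are shown for the 3 genes whose mRNA differed between CHD5 shRNA and control cultures at an adjusted p under 0.05 on some day, Nfia, Id1 and Id2. The first 30 of the 50 bases of each probe identify the stretch of transcript that was measured. The Nfia probe starts at base 3021 of its annotated transcript on chromosome 5, the Id1 probe at base 471 on chromosome 3 and the Id2 probe at base 897 on chromosome 6.
Nfia probe: aacgcctcgtcgtaaccagacattgtccag
Id1 probe: atgtgttccagccgacgaccgcatcttgtg
Id2 probe: agtctttggtcagaaatggcctttttgaca

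The 250 bases before the transcription start that RefSeq's table gives for each gene (build GRCr8) are shown next, on the strand of the gene, with E-boxes in capitals because ID proteins act on the factors that bind this motif. The Nfia window is chr5:117557030-117557279 on the plus strand, the Id1 window chr3:161671314-161671563 on the plus strand and the Id2 window chr6:47470996-47471245 on the minus strand.
Nfia: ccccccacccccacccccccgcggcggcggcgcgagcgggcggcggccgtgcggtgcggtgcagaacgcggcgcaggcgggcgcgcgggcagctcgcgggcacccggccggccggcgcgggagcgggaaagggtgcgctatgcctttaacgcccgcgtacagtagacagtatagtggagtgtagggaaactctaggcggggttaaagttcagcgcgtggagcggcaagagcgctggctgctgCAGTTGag
Id1: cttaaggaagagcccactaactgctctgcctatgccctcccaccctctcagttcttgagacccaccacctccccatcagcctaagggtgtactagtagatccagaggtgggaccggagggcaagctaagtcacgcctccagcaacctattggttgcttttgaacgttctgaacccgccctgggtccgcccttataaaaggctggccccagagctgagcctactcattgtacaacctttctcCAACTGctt
Id2: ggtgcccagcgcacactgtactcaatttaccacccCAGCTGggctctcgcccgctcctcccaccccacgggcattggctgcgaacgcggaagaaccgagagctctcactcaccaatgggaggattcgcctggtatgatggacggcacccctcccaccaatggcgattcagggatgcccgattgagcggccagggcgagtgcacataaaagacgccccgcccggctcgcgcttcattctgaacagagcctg

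Each of the 3 windows held 1 match to CANNTG, a pattern that is its own reverse complement, so that a match on either strand counts once. It began 8 bases before the start in Nfia, 9 in Id1 and 215 in Id2, and 65.5% of the 33469 RefSeq windows of this length held at least 1. The NFI half-site TTGGC, searched on both strands, was found once in Id2, 177 bases before the start, and not in Nfia or Id1, against 40.3% of all windows. The GC-rich SMAD motif GGCGCC was found in none of the 3 and in 8.69% of all. GC content was 72.8% in the Nfia window, 54.8% in Id1 and 62.8% in Id2, against a median of 51.2%. A match describes the letters of the window and is not a binding site.

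Values below are log2 signals normalized to a common mean and spread of all arrays, unless given as raw signal. Mean raw signals lay between 400.2 and 789.3 on 17 of the 18 arrays. The day 9 control array of replicate b stood apart, with a mean signal of 134.8 and 7047 probes detected, where the other arrays had 8360 to 9931. Every day 9 comparison with control cultures uses it, and calls of members there are given with and without it. All groups share a common estimate of the spread, so this array also enters the tests of the other days. Probes differ in brightness, so levels were not compared between genes. In a culture of mixed cells, fewer cells of a type and less RNA per cell cannot be told apart.

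Differences between CHD5 shRNA and control were tested with limma over the 11079 probes, with Benjamini-Hochberg adjustment, and a gene is said to be called where its adjusted p was under 0.05. At day 5, 0 of the 6 detected members were called, by limma or by the criteria of the study's methods, against 0.171% of all probes, and 1 of the 6 (Nfia) had an unadjusted p under 0.05. At day 9, Nfia and Id2 were lower after CHD5 depletion (2 of 6 called, against 5.89% of all probes in either direction and 2.25% lower). At day 12, Nfia was lower and Id1 higher (2 of 6 called, against 5.47% of all probes, 3.24% lower and 2.23% higher). Nfib, Nfix and Id3 were not called at any day. The median log2 difference over the 6 members was -0.16, -0.24 and -0.13 at days 5, 9 and 12, against 0.01, -0.02 and 0.01 over all probes.

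**Figure D1:**
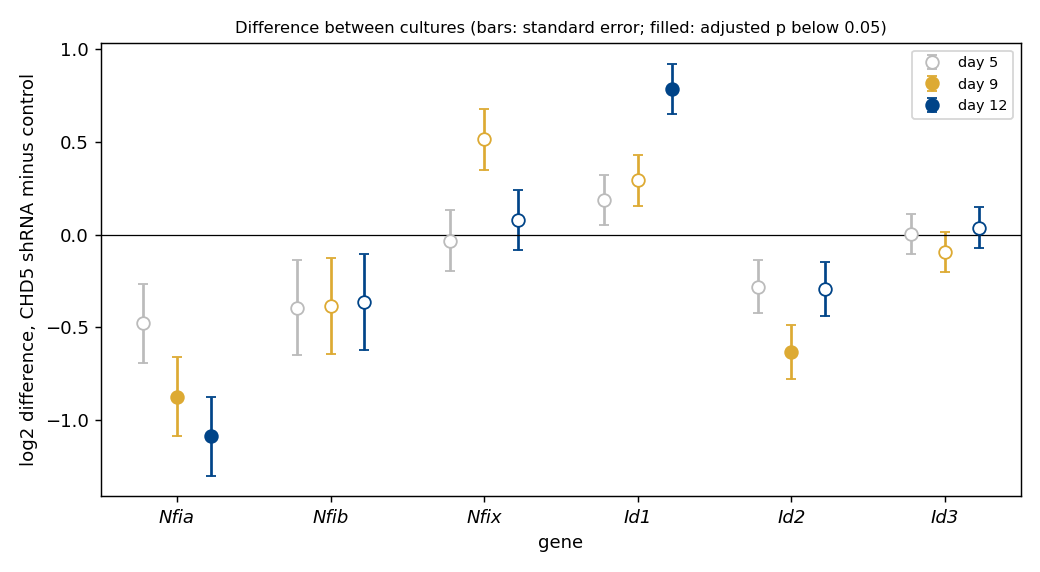
Log2 difference between CHD5 shRNA and control cultures (vertical axis) for the 6 detected genes (horizontal axis) at days 5, 9 and 12, each from 3 against 3 arrays; bars are standard errors and filled points have a limma adjusted p under 0.05. Nfia lies at -0.48, -0.87 and -1.09 over the days, while Id1 lies at 0.19, 0.29 and 0.79 and Id2 at -0.28, -0.63 and -0.29.

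Nfia encodes the NFI factor best known for starting astrocyte formation, and it had the largest fall of the 6 members at days 9 and 12. At day 5 the normalized log2 signals of replicates a, b and c were 10.81, 10.89 and 10.36 in control and 10.19, 10.32 and 10.13 in CHD5 shRNA cultures. All 3 CHD5 shRNA arrays lay below all 3 control arrays, as the groups of 11.0% of all probes did not overlap at this day. The difference of -0.48 ± 0.21 (SE) was not called (limma adjusted p = 0.811). Without the weak day 9 control array it was -0.49 (unadjusted p = 0.000948, adjusted p = 0.058) and was still not called.

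At day 9 the Nfia signals of replicates a, b and c were 10.80, 9.69 and 10.70 in control and 9.49, 9.75 and 9.32 in CHD5 shRNA cultures. The groups overlapped, because the weak control array of replicate b lay below the highest CHD5 shRNA array, while the other 2 control arrays lay clear of all 3. The difference was -0.87 ± 0.21, a 1.83-fold lower level (limma adjusted p = 0.0219, exact permutation p = 0.2, two-sided, where 3 against 3 arrays cannot go below 0.1). Without the weak array it was -1.25 (limma adjusted p = 1.9e-05). The call was lost when only the 6 arrays of the day were fitted (adjusted p = 0.369), with median centring (0.357), without the detection filter (0.0768), and when control replicate c (0.08), CHD5 shRNA replicate a (0.0825) or CHD5 shRNA replicate c (0.145) of the day was left out.

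At day 12 the Nfia signals were 10.99, 10.93 and 10.81 in control and 9.95, 9.72 and 9.80 in CHD5 shRNA cultures. The groups were separated by 0.86 between the lowest control and the highest CHD5 shRNA array, and the groups of 38.2% of all probes did not overlap at this day. The difference of -1.09 ± 0.21 was a 2.12-fold lower level (limma adjusted p = 0.0049, exact permutation p = 0.1, two-sided and the smallest possible). It was not called with median centring (-1.14, adjusted p = 0.117) and was called under each other alternative and without each array in turn.

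Over the days, Nfia changed little in control cultures, by 0.22 ± 0.21 from day 5 to day 12 (limma adjusted p = 0.509). In CHD5 shRNA cultures it fell from day 5 to day 9 by 0.69 ± 0.21 (adjusted p = 0.0494), a call that was lost under 4 of 10 alternatives, the replicate block within the day among them (adjusted p = 0.0549), and in 14 of the 18 fits without 1 array. It differed by -0.39 ± 0.21 between days 5 and 12 (adjusted p = 0.249, but 0.02 without the weak day 9 control array, 0.00706 with only the CHD5 shRNA arrays fitted and 0.00262 with array weights). The change of the shRNA difference from day 5 to day 12 was -0.61 and was not called (limma adjusted p = 0.778). Without the weak day 9 control array it was -0.62 (unadjusted p = 0.00225, adjusted p = 0.0738) and was not called either. A growing fall was thus not shown.

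Nfib and Nfix were not called in any comparison of the 2 lentiviruses. Nfib, which acts with Nfia in astrocyte and cortical development, ranged from 7.68 to 9.19 in control and from 7.85 to 8.17 in CHD5 shRNA cultures at day 5, from 7.33 to 8.16 and from 7.22 to 7.51 at day 9, and from 7.67 to 7.91 and from 7.38 to 7.49 at day 12. The groups overlapped at days 5 and 9 and did not at day 12. The differences of -0.39, -0.38 and -0.36 (each ± 0.26) were alike in size over the days and were not called (limma adjusted p = 0.999, 0.426 and 0.593). Without the weak day 9 control array they were less alike, at -0.40, -0.59 and -0.37, and were not called either. At day 12 Nfib was called when only the arrays of the day were fitted (adjusted p = 0.00217) and with array weights (0.0205), and it met the criteria of the study's methods.

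Nfix ranged from 10.07 to 10.91 in control and from 10.49 to 10.54 in CHD5 shRNA cultures at day 5. At day 9 the control arrays had 9.72, 9.80 and 9.75 and the CHD5 shRNA arrays 10.21, 10.16 and 10.45. Every CHD5 shRNA array lay above every control array at this day. The difference of 0.51 ± 0.16 was not called (limma adjusted p = 0.0711, against 0.0443 with the replicate block within the day and 0.0501 without the weak array). At days 5 and 12 the Nfix difference was -0.03 and 0.08 and the groups overlapped.

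Nfic, the remaining NFI gene, was not detected on any of the 18 arrays. Its raw signals lay between 64.5 and 89.6 and its lowest detection p-value was 0.124. It was left out of the tests, and its level in these cultures is not known from this probe.

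**Figure D2:**
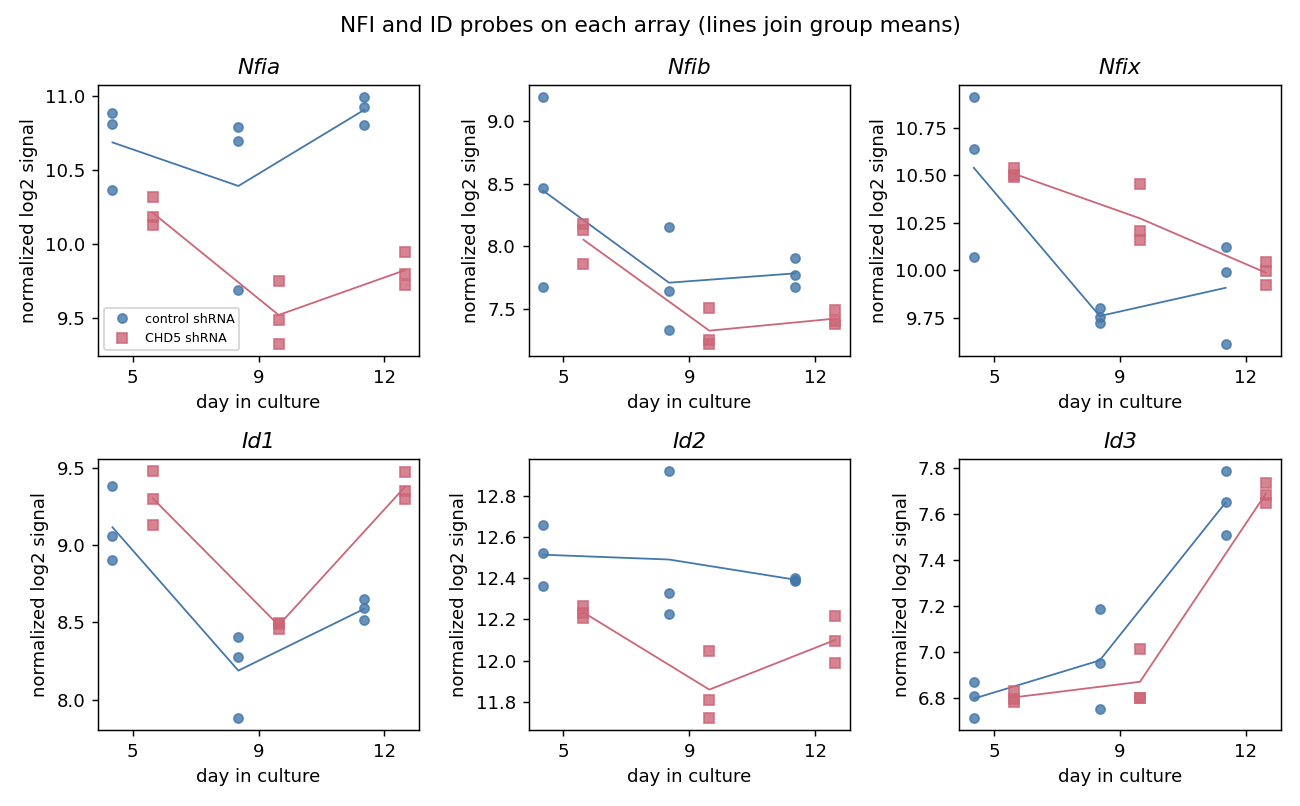
Normalized log2 signal (vertical axes) of each detected NFI and ID probe on every array at days 5, 9 and 12 (horizontal axes); circles are control shRNA arrays, squares CHD5 shRNA arrays, 3 per group, and lines join group means. At day 12 the Nfia squares lie between 9.72 and 9.95, below the circles at 10.81 to 10.99, and the Id1 squares lie between 9.30 and 9.47, above the circles at 8.52 to 8.65.

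Id1 and Id2, closely related inhibitors of E proteins, were called in opposite directions and on different days, Id1 higher at day 12 and Id2 lower at day 9. Id1 at day 5 had 9.06, 8.91 and 9.38 in control and 9.13, 9.48 and 9.30 in CHD5 shRNA cultures. The groups overlapped at day 5, and the difference of 0.19 ± 0.14 was not called. At day 9 the control arrays had 8.27, 7.88 and 8.41 and the CHD5 shRNA arrays 8.50, 8.49 and 8.45. The groups no longer overlapped but lay within 0.05 of each other, and the difference of 0.29 ± 0.14 was not called (limma adjusted p = 0.234). Without the weak control array the day 9 difference was 0.14 (limma adjusted p = 0.467), no larger than that of day 5.

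At day 12 the Id1 signals of replicates a, b and c were 8.52, 8.59 and 8.65 in control and 9.30, 9.35 and 9.47 in CHD5 shRNA cultures. The 2 groups were far apart relative to their spread, with SDs of 0.07 and 0.09 (n = 3). Id1 was 1.72-fold higher after CHD5 depletion (0.79 ± 0.14, limma adjusted p = 0.00188, exact permutation p = 0.1, two-sided and the smallest possible), and 0.993% of all probes had a smaller p. This call held under all 10 alternatives fitted by limma (adjusted p from 3.14e-09 to 0.0229) and without each array in turn. The raw signals of the same arrays were 395.2, 389.2 and 456.1 in control against 702.6, 647.5 and 693.6.

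Id1 also changed with time. From day 5 to day 9 it fell by 0.93 ± 0.14 in control (limma adjusted p = 0.000112, and by 0.79 without the weak array, 7.84e-05) and by 0.82 ± 0.14 in CHD5 shRNA cultures (adjusted p = 0.000927). From day 9 to day 12 it rose by 0.89 in CHD5 shRNA cultures (adjusted p = 0.00136) and was not called in control. At day 12 it was thus 0.53 ± 0.14 below its day 5 level in control cultures (adjusted p = 0.00818, but 0.0633 with only the control arrays fitted and 0.0549 without the detection filter) and 0.07 ± 0.14 above it after CHD5 depletion (adjusted p = 0.789). The change of the shRNA difference between days 5 and 12 was 0.60 (unadjusted p = 0.00608, adjusted p = 0.297) and was not called, as for each of the 6 members, against 0.153% of all probes. Without the weak day 9 control array it was 0.61 (adjusted p = 0.0391), and with array weights 0.69 (adjusted p = 0.0117).

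Id2, which is abundant in maturing cortical neurons as well as in glial precursors, had 12.52, 12.66 and 12.36 in control and 12.21, 12.26 and 12.23 in CHD5 shRNA cultures at day 5. The CHD5 shRNA arrays lay below the control arrays, and the difference of -0.28 ± 0.14 was not called (limma adjusted p = 0.942). At day 9 the control arrays had 12.23, 12.92 and 12.33 and the CHD5 shRNA arrays 11.81, 12.05 and 11.72. The groups did not overlap, as for 20.6% of all probes at this day, and the highest value was that of the weak control array.

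Id2 was 1.55-fold lower after CHD5 depletion at day 9 (-0.63 ± 0.14, limma adjusted p = 0.0155, exact permutation p = 0.1, two-sided and the smallest possible). Without the weak array the difference was -0.43 (adjusted p = 0.0133). With median centring the difference was -0.19 (adjusted p = 0.799). The call was also lost when only the arrays of the day were fitted (adjusted p = 0.354), without the detection filter (0.0802), and without CHD5 shRNA replicate a (0.07) or c (0.112) of the day.

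At day 12 Id2 had 12.39, 12.39 and 12.40 in control and 12.09, 11.99 and 12.22 in CHD5 shRNA cultures. The control arrays were nearly equal and all lay above the CHD5 shRNA arrays. The difference of -0.29 ± 0.14 was not called (limma adjusted p = 0.335), and it was called when only the arrays of the day were fitted (0.00759), with array weights (0.00123) and without the weak day 9 control array (0.0412). Between days 5 and 12 Id2 differed by -0.12 in control and -0.13 in CHD5 shRNA cultures, and neither was called.

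Id3, like Id1 an early response gene of BMP signalling, was a dim probe detected on 16 of the 18 arrays, with raw signals from 75.3 to 247.7. It differed between CHD5 shRNA and control cultures by 0.01, -0.09 and 0.04 (each ± 0.11) at days 5, 9 and 12, and the groups overlapped on all 3 days. Its change was with time. Control cultures had 6.71, 6.81 and 6.87 at day 5 and 7.51, 7.65 and 7.79 at day 12. CHD5 shRNA cultures had 6.83, 6.80 and 6.78 at day 5 and 7.65, 7.68 and 7.74 at day 12. All day 12 arrays lay above all day 5 arrays. Between these days the groups of 44.3% of all probes in control and 47.6% in CHD5 shRNA cultures did not overlap.

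Id3 rose by 0.85 ± 0.11 from day 5 to day 12 in control (limma adjusted p = 1.14e-05) and by 0.89 ± 0.11 in CHD5 shRNA cultures (adjusted p = 1.36e-05). Most of the rise fell between days 9 and 12, at 0.69 in control (adjusted p = 0.00105, and 0.82 without the weak array, 2.93e-05) and 0.82 in CHD5 shRNA cultures (adjusted p = 0.000524). Both of these steps lost their call with median centring (adjusted p = 0.118 and 0.0862), and the control step also with only the control arrays fitted (0.0561), whereas the change from day 5 to day 12 kept its call under all 10 alternatives in both cultures.

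Over time 3 of the 6 members were called between days 5 and 12 in control cultures (Nfix and Id1 lower, Id3 higher), against 23.6% of all probes. In CHD5 shRNA cultures 2 were called (Nfix lower, Id3 higher), against 17.0%. Nfix fell by 0.63 ± 0.16 in control (limma adjusted p = 0.00816) and by 0.52 ± 0.16 in CHD5 shRNA cultures (adjusted p = 0.0337). The first call was lost with only the control arrays fitted (adjusted p = 0.0701) and without day 12 control replicate c (0.0599). The second was lost with quantile normalization (0.0906), neqc (0.122) and no detection filter (0.0759), and without any 1 of its own 6 arrays (0.0667 to 0.112). Nfib differed by -0.66 ± 0.26 in control (adjusted p = 0.0743) and -0.63 ± 0.26 in CHD5 shRNA cultures (adjusted p = 0.11), which became 0.0288 and 0.0428 without the weak day 9 control array and 0.0388 and 0.00157 with array weights. With only the CHD5 shRNA arrays fitted, the CHD5 shRNA value was 0.000108.

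In single steps, Nfib, Nfix and Id1 were called lower in control cultures from day 5 to day 9, against 22.0% of all probes. Nfix fell by 0.78 (limma adjusted p = 0.00242, and by 0.82 without the weak array, 0.00193), a call lost with array weights (0.0786). Nfib fell by 0.74 (adjusted p = 0.0496, and 0.152 without the weak array), a call lost under 7 of 10 alternatives and in 16 of the 18 fits without 1 array. Id3 was the member called from day 9 to day 12 in control, against 4.16% of all probes. In CHD5 shRNA cultures Nfia and Id1 were called between days 5 and 9, against 9.33%, and Id1 and Id3 between days 9 and 12, against 1.37%. Comparisons over time within a lentivirus share arrays with each other and with the comparisons within a day.

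Related genes were also compared by the difference between 2 probes on the same array. It does not depend on shifts common to both, but it does depend on the rescaling of each array's spread. Before rescaling, the log2 signals of the weak array had an SD of 1.11, where the other arrays had 1.72 to 2.02. The rescaling therefore widened the differences on the weak array most. Id1 minus Id2 lay between -3.87 and -3.75 on the control arrays and between -2.79 and -2.64 on the CHD5 shRNA arrays of day 12. The groups were separated, and the mean rose by 1.08. At day 9 it lay between -5.04 and -3.92 in control and between -3.56 and -3.27 after CHD5 depletion. The lowest of these was the weak control array, and without it the mean shift of 0.93 became 0.56. Raw signals of Id1 and Id2 were 101.4 and 876.3 on the weak array. On the CHD5 shRNA arrays of day 9 they were 345.0 and 3370.2, 306.2 and 3327.4, and 304.3 and 2673.5. By these raw signals, which include background, Id1 relative to Id2 was not lower on the weak array. Without the rescaling the groups of day 9 were thus not separated. The median signal of probes at background level on the weak array was 65.3, a large part of its Id1 signal. The difference after background subtraction was not tested. At day 5 the groups overlapped. Nfix minus Nfia lay between -1.20 and -0.80 in control and between 0.10 and 0.27 after CHD5 depletion at day 12, a shift of 1.17. At day 9 it shifted by 1.39 without overlap (1.76 without the weak array), and at day 5 the groups overlapped. At days 9 and 12 each exact permutation test gave p = 0.1, two-sided and the smallest possible, with an adjusted p of 0.15 over the 6 comparisons of this kind, so these differences stay above 0.05 by design. The pairs were chosen after their values were seen.

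**Figure D3:**
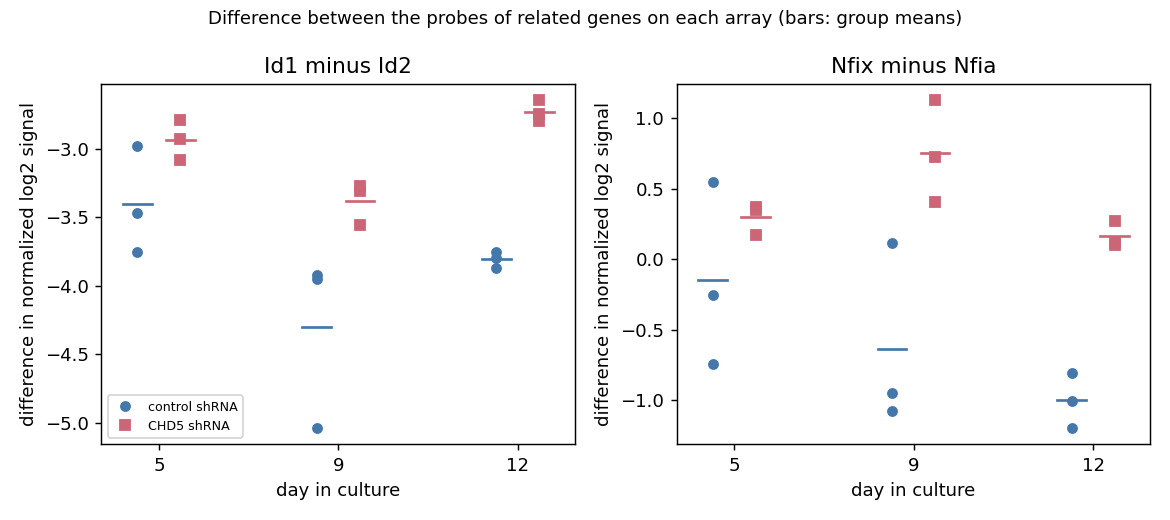
Difference in normalized log2 signal between Id1 and Id2 (left) and between Nfix and Nfia (right) on each array (vertical axes) at days 5, 9 and 12 (horizontal axes), with circles for control shRNA, squares for CHD5 shRNA and bars for the means of 3 arrays. At day 12 both differences lie higher on every CHD5 shRNA array, by 1.08 for Id1 minus Id2 and by 1.17 for Nfix minus Nfia in the mean.

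Many markers of astrocytes, the cells that NFI and BMP signalling favour, were lower after CHD5 depletion at days 9 and 12. Nfia was called lower on both of these days and Id2 at day 9 only. Of 18 listed markers 16 had a probe and 15 were detected. Of the 15, 11 were called lower at day 9 and 10 at day 12, against 2.25% and 3.24% of all probes. Their median differences were -1.00 and -0.83. Without the weak day 9 control array 12 and 13 were called, with only the arrays of the day fitted 0 and 14, and with median centring 3 and 9. Without the detection filter 7 were called on each day, and leaving out the day 9 array of CHD5 shRNA replicate c brought that day to 6. Ndrg2, an astrocyte-enriched gene, was lower at day 9 (-1.52 ± 0.26, limma adjusted p = 0.00325) and at day 12 (-1.31 ± 0.26, adjusted p = 0.00578). Gfap, the intermediate filament of astrocytes, fell by 1.24 at day 9 (adjusted p = 0.00355) and differed by -0.43 at day 12 (adjusted p = 0.357).

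Other astrocyte genes called on both days included Aqp4, the water channel of astrocyte endfeet (-0.81 and -0.83), S100b (-0.84 and -1.28), Aldoc (-1.23 and -1.25), Gja1, the connexin of astrocyte gap junctions (-1.29 and -0.84), Fgfr3 (-0.55 and -0.69) and Cldn10 (-0.77 and -1.42). Apoe (-1.81) and Sparcl1 (-0.94) were called at day 9, and Slc1a2, a glutamate transporter (-0.54), and Clu (-0.61) at day 12. The summed raw signal of the list ranged from 27158 to 93986 in control and from 50725 to 64046 in CHD5 shRNA cultures at day 9, with the weak array lowest, and from 124212 to 138585 and from 81107 to 91474 at day 12. The part of astrocyte number or RNA in the Nfia and Id2 results was not tested.

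The astrocyte markers also changed with time. From day 5 to day 12, 14 of the 15 astrocyte markers were called higher in control, with a median of 2.91, against 11.1% of all probes. In CHD5 shRNA cultures 14 were called higher, with a median of 2.09, against 8.46%. Over the same days Nfia differed by 0.22 and Id2 by -0.12 in control cultures, while Id3 rose by 0.85.

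Of 24 BMP and SMAD genes 16 were detected. Between lentiviruses 0 were called at days 5 and 9 and 1 at day 12, against 0.171%, 5.89% and 5.47% of all probes. A list of 16 genes would hold few or no calls at such shares. Before adjustment, 1 gene at day 5 and 6 at day 9 had p below 0.05, counts not set against all probes. The groups of 12 of the 16 did not overlap at day 12, against 38.2% of all probes. The gene called at day 12 was Nog, the secreted BMP antagonist noggin, which was lower by 0.49 ± 0.13 (limma adjusted p = 0.0347). Nog differed by -0.27 and -0.41 at days 5 and 9 and was not called there. The largest fall of the list at day 12 was that of the ligand Bmp7 (-0.67, adjusted p = 0.079), which was not called. A link of these genes to Id1 was not tested. With time, from day 5 to day 12, 7 of the 16 were called in control cultures, 4 higher and 3 lower, against 23.6% of all probes. In CHD5 shRNA cultures 5 were called, 3 higher and 2 lower, against 17.0%. The ligand Bmp4 rose in control by 1.03 (adjusted p = 6.45e-06), Bmp7 by 0.65, Nog by 0.62 and the receptor Bmpr1a by 0.44, while the receptor Acvr1 (-0.86), the secreted antagonist Fst (-1.02) and Smad1 (-0.38) were lower. Bmp4 differed by -0.33 between lentiviruses at day 12 (adjusted p = 0.17). Smad1, a mediator of BMP receptors, differed by 0.42 at day 9 (adjusted p = 0.0742).

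Of 15 bHLH partners of ID proteins 8 were detected and 0 were called between lentiviruses on any day (0, 1 and 1 at an unadjusted p under 0.05 at days 5, 9 and 12), with a median difference of -0.23 at day 12. Tcf12, an E protein, differed by -0.49 at day 9 (limma adjusted p = 0.0634) and Tcf4 by -0.31 at day 12 (adjusted p = 0.33). Of 20 further factors of glial fate 13 were detected and 0 were called between lentiviruses, against the same shares (0, 4 and 3 at an unadjusted p under 0.05). At these shares, lists of 8 and 13 genes would hold few or no calls. Sox9, which acts upstream of Nfia in glial initiation, differed by -0.07 and 0.12 at days 9 and 12. In control cultures 6 of the 13 were called higher and 2 lower from day 5 to day 12, against 11.1% and 12.5% of all probes. Among those higher were Sox8 (1.63) and Hes5, a Notch target (1.12).

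Markers of other cells were read in shorter lists. Of 10 detected genes of the oligodendrocyte lineage 2 were called lower at day 9 and 2 at day 12, against 2.25% and 3.24% of all probes. On these days 8 and 10 had a difference below 0. Cnp was called on both days (-0.58 and -0.71). Of 5 detected fibroblast genes 3 were called on each day, 2 lower and 1 higher, against 5.89% and 5.47% of all probes in either direction. Col1a2 (-0.98) was called lower at day 9, Dcn (-0.55 and -0.69) on both days and Lum (-0.59), which was detected on 1 array, at day 12, while Thy1, which neurons also express, was higher (0.62 and 0.53). Of 9 neuronal genes Tubb3 was called higher (0.55 and 0.53), against 3.65% and 2.23% of all probes. Of 10 proliferation genes 0 were called (5, 1 and 2 at an unadjusted p under 0.05 at days 5, 9 and 12). Markers of microglia and of endothelial cells and pericytes had 2 detected genes each, too few to set against these shares. Of them 0 were called, also at an unadjusted p under 0.05. Their summed raw signals were at most 679.6 and 540.0 over 7 and 6 probes.

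**Figure D4:**
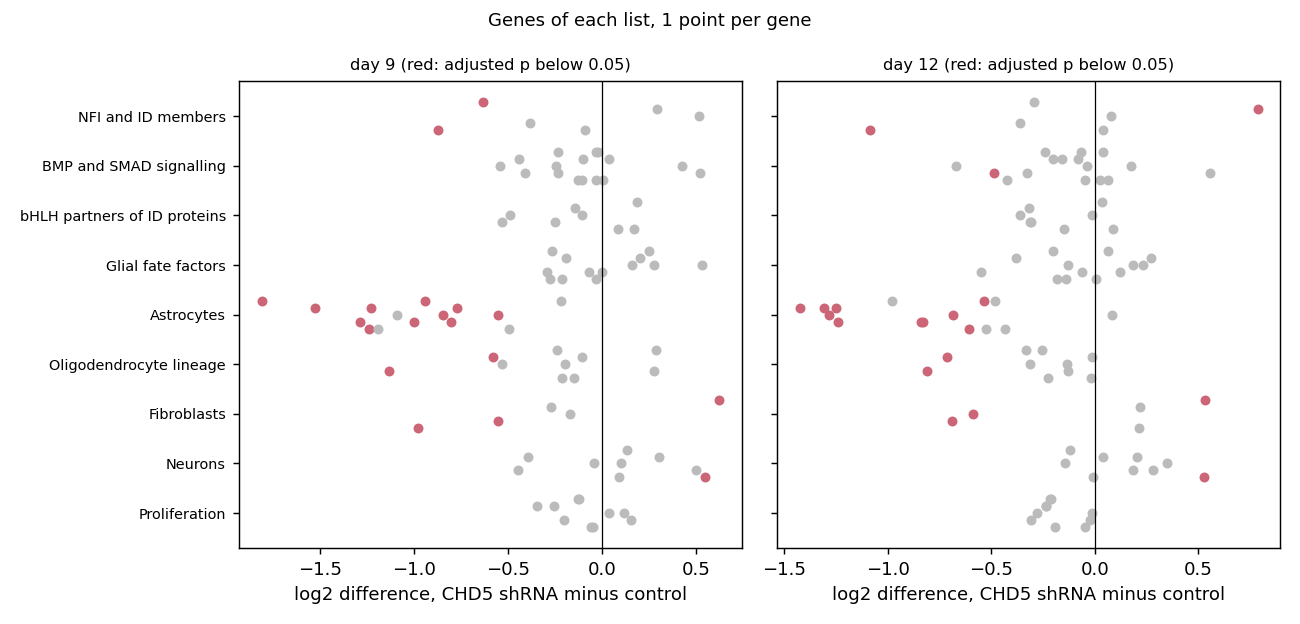
Log2 difference between CHD5 shRNA and control (horizontal axes) for each detected gene of the lists (vertical axis) at day 9 (left) and day 12 (right), 1 point per gene at an arbitrary height within its row; red points have a limma adjusted p under 0.05. Of the 15 astrocyte markers 11 and 10 are red and lower, while the NFI and ID members hold 2 red points on each day, both lower at day 9 and on opposite sides of 0 at day 12.

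The probes most like each member over the 18 arrays were named by their Pearson correlation of normalized log2 signal, as a description across arrays that share time and lentivirus. For Nfia they were LOC287274 and Kpnb3_predicted, with r = 0.94 for both, and Slco1c1, a transporter of thyroid hormone found in astrocytes and brain vessels (r = 0.94). For Nfib they were LOC302327 (0.96), Gpr22_predicted (0.96) and Parg (0.95), and for Nfix Eif3s8 (0.95), Pde10a (0.93) and Ehmt1_predicted (0.91). For Id1 they were Eif4g3_predicted (0.88), Dock9 (0.88) and Tubb5 (0.86), for Id2 Hnrph2 (0.90), Nmbr (0.88) and Steap1_predicted (0.87), and for Id3 S100a3 (0.93), Fmo1 (0.92) and Hopx (0.92). No member was among the 3 probes most like another.

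Between members, r over the 18 arrays was highest for Nfia and Nfib (0.67), next for Nfia and Id2 (0.56), and -0.19 for Id1 and Id2. After removing the group means, r was 0.66 for Nfia and Nfib and -0.45 for Nfia and Id2. These values are descriptions of 18 arrays of which 1 is weak.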

How the data were processed

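Rat cortical neuron RNA was hybridised to Illumina RatRef-12 arrays, 3 for each of 2 lentiviruses on 3 days (18 arrays). The deposited signal intensity is the average of the beads carrying a probe, extracted by the authors with GenomeStudio (version 1.1.1 per the submitters' processing notes) without normalization or background subtraction. The deposited detection p-value compares a probe with negative control beads. The 6 arrays of replicate a were measured again, and these second runs entered 1 alternative.

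Kept were 11079 of 22523 probes, those whose detection p-value was 0.02 or less on 1 array or more. Their log2 signals were Z-transformed per array, after the study's methods, and brought back to the arrays' average spread. The fit used lmFit and eBayes of limma 3.58.1 in R 4.3.3, with 6 groups of 3 and Benjamini-Hochberg adjustment over all kept probes per contrast and a threshold of 0.05. Exact permutation tests were two-sided. The procedure was tested on simulated data.

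The members, gene lists and named genes (all members, the 3 probes most like each, and list genes called) were chosen with earlier results of these data known. A probe annotated Tcf3_predicted on another chromosome than RefSeq's Tcf3 was not used for it, and Tcfe2a was. Letters pair the arrays where every same-letter pair of a day deviated together (r over 0.1). This held at day 5 (r = 0.27, 0.17 and 0.38), not at day 9 (0.43, 0.15 and -0.20) or day 12 (0.05, 0.15 and 0.01).

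Alternatives were quantile normalization, median centring, neqc (offset 16), no detection filter, a filter requiring 3 of 3 detected arrays in some group, only the arrays compared, a replicate block by letter or within the day, array weights, averaged second runs, each array left out and the criteria of the study's methods (Z-ratio beyond 1.5, unadjusted p under 0.05, false discovery rate under 0.3). The fourth criterion of those methods, a mean background-corrected signal above zero, was not applied, because the deposited signals are not background-corrected. For changes over time, only the arrays compared means all arrays of that lentivirus. The number of arrays limits the precision. Values of some single marker genes are not reported here, and the counts over the marker lists include them.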

Additional observations from a re-analysis of the deposited data

How the results depend on the processing

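Of the 6 members, 0 were called at day 5 under every alternative and with every array left out. At day 9 the count of 2 became 0 with median centring, without the detection filter, with only the arrays compared and by the criteria of the study's methods, and ranged from 0 to 3 with each array left out. At day 12 the count of 2 became 1 (Id1) with median centring and 4 (Nfia, Nfib, Id1 and Id2) with only the arrays compared or with array weights, and ranged from 2 to 3 with each array left out. Between days 5 and 12 the control count of 3 became 1 with only the arrays compared and ranged from 2 to 4. The CHD5 shRNA count of 2 became 1 with quantile normalization, neqc and no detection filter and 4 with only the arrays compared or array weights, and ranged from 1 to 4. The count of 0 for a changed effect became 1 (Id1) with array weights, and ranged from 0 to 1.

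The replicate block by letter left the calls of members within each day at 0, 2 and 2 for days 5, 9 and 12, and the replicate block within the day, the pairing found at day 5, gave 0, 3 and 2. Values that changed sign were near 0. For Id3 the CHD5 shRNA difference at day 5 was -1.71e-05 under the stricter detection filter, -0.00208 with array weights and -0.0143 with averaged second runs, at day 9 it was 0.000296 with neqc, and at day 12 it was -0.00832 with array weights. With each array left out the Id3 difference ranged from -0.0362 to 0.0419 at day 5, from -0.197 to 0.0187 at day 9 and from -0.0314 to 0.107 at day 12, that of Nfix from -0.264 to 0.154 at day 5 and from -0.0688 to 0.186 at day 12, and the change of Id1 between days 5 and 12 in CHD5 shRNA cultures from -0.0159 to 0.159. Each member had 1 probe, so no other probe was tried. The cause of these changes was not tested.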
